A study of Rattus norvegicus with 12 samples.

Results

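Actinomycin D (ActD) intercalates into DNA and stops RNA synthesis, so that in treated cells a transcript can only persist or decay. Transcripts with short lifetimes, among them the immediate early genes that neuronal firing switches on and many cytokine, cell cycle and stress regulators, are then the first to be lost, whereas mRNAs of ribosomal proteins, the respiratory chain and the cytoskeleton are known for long lifetimes. The comparison described here set BiC/4AP + ActD cultures against BiC/4AP cultures at 5, 30 and 60 min, 3 arrays against 3 and 6 of the 12 arrays of the series, to find transcripts that were relatively lost or spared when transcription was stopped around a bout of synaptic activity. Arrays were chosen by their labels alone.

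All cultures were hippocampal neurons of Sprague Dawley rats taken at embryonic day 18.5, grown for 12 days and held for 3 h in Block, which silences synapses with 50 µM APV against NMDA receptors, 40 µM CNQX against AMPA and kainate receptors and 100 nM TTX against sodium channels. BiC/4AP + ActD cultures then had the cocktail washed out, per the methods, and received 50 µM bicuculline (BiC), an antagonist of inhibitory GABA-A receptors, together with 500 µM 4-aminopyridine (4AP), an inhibitor of potassium channels, in the presence of 25 µM ActD. BiC/4AP cultures received bicuculline and 4-aminopyridine with no ActD but, per the methods, its vehicle DMSO. The methods also place rinses with ActD or DMSO and a pre-incubation before the stimulus, so exposure to ActD was longer than the stated time. Block + ActD and Block cultures, used only to ask whether a difference was particular to stimulated cultures, stayed in the cocktail. The labels give treatments of 5, 30 and 60 min, while the methods of the study describe a 5 min stimulus after which the later RNA was taken, so a time may mean either. Each array carried RNA pooled from 3 coverslips per the labels, whereas the methods describe nylon array RNA as a pool over separate experiments, so what a single array averages over is not settled. No condition had a second array, all samples carry the same replicate number, and the spread in every test below is therefore the disagreement between the 3 times. The cultures included a glial feeder layer, and in such bulk RNA fewer cells of a type and less RNA per cell cannot be told apart.

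Values are spot intensities on a log2 scale, centred and scaled on each array, and a difference is always BiC/4AP + ActD minus BiC/4AP. Because of this scaling only a loss relative to other transcripts is visible, and a loss shared by all transcripts is removed. Median raw intensity on the BiC/4AP + ActD and BiC/4AP arrays was 24.53 and 30.22 at 5 min, 46.32 and 43.14 at 30 min, and 59.8 and 53.53 at 60 min. The 30 min BiC/4AP array stood apart in the series: its correlation with the 11 other arrays over 9216 clones had a median of 0.918 (range 0.907 to 0.933), against medians of 0.928 to 0.959 for every other array. Among the 6 arrays compared here its median correlation was 0.922, against 0.924 to 0.937 for the others, so it stood apart little by that measure. The main results are also given without this array. With time as block, leaving out this array removes the 30 min pair. Neuron markers were above blank spots on all 6 arrays for 11 of 13 genes, with a summed scaled intensity of 646.1 to 785.2 on BiC/4AP + ActD arrays and 503.2 to 756 on BiC/4AP arrays. The corresponding counts were 10 of 11 for astrocyte markers, 5 of 6 for oligodendrocyte, 8 of 8 for microglial and 7 of 8 for fibroblast and vessel markers.

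No transcript passed the threshold in either direction. Of 9216 clones tested with limma (time as block, Benjamini-Hochberg adjustment), 0 were higher and 0 lower with ActD at an adjusted p under 0.05 (background 0%), and the smallest adjusted p was 0.9998. Before adjustment 71 clones were higher (0.77%) and 70 lower (0.76%) at p under 0.05, 141 in all, where 460.8 would be expected if p-values were uniform. The difference was above 0 in all 3 pairs of arrays for 9.27% of clones and below 0 in all 3 for 9.29%. The 3 BiC/4AP + ActD values lay wholly above the 3 BiC/4AP values for 2.35% of clones and wholly below them for 2.04%. The fit had 2 residual degrees of freedom, and the number of arrays limits its precision.

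The pairs of arrays did not share a pattern across clones. Over the 6912 clones above the lowest 25% of intensity, the SD of the difference was 0.308 at 5 min, 0.597 at 30 min and 0.358 at 60 min, against 0.319, 0.304 and 0.335 in the Block + ActD and Block pairs of the same times. The correlation of the 30 min with the 60 min difference was -0.189, that of 5 with 30 min -0.129 and that of 5 with 60 min 0.0389 (-0.0399, -0.0999 and -0.0321 with print block and position medians removed), as a description across clones, which share arrays and print position. A difference of at least 1 on the log2 scale, either way, was seen in 118 clones higher (1.28%) and 152 lower (1.65%) at 5 min, in 487 higher (5.28%) and 321 lower (3.48%) at 30 min, and in 138 higher (1.5%) and 181 lower (1.96%) at 60 min. For 1004 genes with a second bright clone, the mean levels of the clones correlated at 0.521 across genes, whereas their ActD differences correlated at 0.116, and at -0.00679 without the 30 min pair.

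The clones nearest to the threshold on the higher side were JOSD1, CDC20, YWHAE, KLHL12, RPL27, H3C8, HNRNPH1, MAPK7, MARS1, PPDPF, PDPK1 and NDUFS4, with mean differences of 0.55 to 1.07 and unadjusted limma p of 0.00844 to 0.0231. JOSD1, a deubiquitinase, had scaled log2 intensities of 5.55, 6.05 and 6.01 on the BiC/4AP + ActD arrays of 5, 30 and 60 min, against 5.21, 5.18 and 5.12 on the BiC/4AP arrays. The groups did not overlap, and the difference was 0.70 ± 0.21 (SE). CDC20, an activator of the anaphase-promoting complex, had 5.79, 5.78 and 5.57 with ActD, against 5.44, 4.63 and 4.90 without it. Its mean difference was 0.73 ± 0.23, and its lowest value was on the 30 min BiC/4AP array. Of the 4 other CDC20 clones, 3 had differences of -0.24 to -0.01 and 1 of 0.07, so the clones of this gene did not share a direction.

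YWHAE, the 14-3-3 epsilon adaptor abundant in neurons, had 7.76, 7.69 and 8.05 with ActD, against 7.36, 6.75 and 7.29 without it. The groups did not overlap at a difference of 0.70 ± 0.22, which was 0.58 ± 0.15 without the 30 min pair (limma adjusted p = 0.09), while a second YWHAE clone had 0.05 without that pair. PDPK1, the kinase that activates AKT, had 5.51, 5.69 and 5.67 with ActD, against 5.07, 5.20 and 4.94 without it, and likewise did not overlap. MARS1, the cytoplasmic methionyl-tRNA synthetase, was the most even of the group, with pair differences of 0.46, 0.56 and 0.71, and its 3 other clones had mean differences of 0.21, 0.23 and 0.36. Those of HNRNPH1, a splicing regulator (0.24, 2.48 and 0.47), RPL27 (0.42, 1.66 and 0.42) and KLHL12, a cullin-3 ubiquitin ligase adaptor (0.65, 1.51 and 0.24), were set mainly by the 30 min pair. In 8 of the 12 leading higher clones the 30 min difference was the largest of the 3. The histone H3C8 belongs to a family of near-identical genes and may have been read through its relatives.

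On the lower side the first clones under the same filters were TBCD, GPX1, HIF1AN, RTN1, SSH2, DBNDD2, FUCA2, CCN1, PLEKHF1, ELAVL3, PPP4R3B and PFDN1. They had mean differences of -0.89 to -0.54 and unadjusted limma p of 0.00686 to 0.0316. TBCD, a cofactor of tubulin folding, had 4.62, 5.05 and 4.95 on BiC/4AP + ActD arrays, against 4.86, 6.16 and 6.03 on BiC/4AP arrays. The 30 and 60 min pairs carried the difference of -0.81 ± 0.24, the groups overlapped through the low 5 min BiC/4AP value, and the other TBCD clones were at 0.20 and 0.06. GPX1, the glutathione peroxidase that clears hydrogen peroxide, was the most even of the leading lower clones, with 4.24, 5.20 and 5.25 with ActD, against 4.99, 5.81 and 5.86 without it. Its pair differences were -0.75, -0.61 and -0.62, and the mean of -0.66 ± 0.20 was -0.68 ± 0.25 without the 30 min pair (limma adjusted p = 0.4).

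RTN1, a reticulon of the neuronal endoplasmic reticulum, had 4.70, 5.21 and 4.91 with ActD, against 5.14, 5.79 and 5.72 without it, but its other clone was at 0.34. FUCA2, a secreted fucosidase, had 5.88, 6.32 and 6.47 with ActD, against 6.30, 6.93 and 7.18 without it. PLEKHF1, a lysosomal lipid-binding protein, had 5.21, 5.48 and 5.20 with ActD, against 5.84, 5.89 and 5.77 without it, and the groups did not overlap at a difference of -0.54 ± 0.20. In contrast, PFDN1, a prefoldin chaperone subunit, had 4.66, 4.93 and 4.75 with ActD, against 4.93, 7.09 and 4.96 without it, so that the 30 min BiC/4AP array carried the difference of -0.88, which was -0.24 without the 30 min pair. PPP4R3B, a regulatory subunit of protein phosphatase 4, rested in the same way on the 60 min pair, with -0.02, -0.53 and -2.12. The neuronal RNA-binding protein gene ELAVL3, whose product stabilizes AU-rich mRNAs, had 4.77, 4.63 and 4.70 with ActD, against 5.03, 5.87 and 5.09 without it, with no overlap, and a second ELAVL3 clone had 0.20.

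Of the further clones of the 12 leading higher genes above the lowest 25% of intensity, 7 of 12 lay in the direction of the leading clone. Among these 7 were RPL27 clones at 0.32 to 0.61, which lay at -0.14 to -0.04 without the 30 min pair. Among the leading lower genes 1 of 6 further clones lay in the direction of the leading clone. Of the 1004 genes with a second bright clone, 52.9% had the same sign in both clones. Without the 30 min pair 0 of the 24 leading clones passed (limma, lowest adjusted p = 0.09 for YWHAE on the higher and 0.129 for PPP4R3B on the lower side). In Block cultures 1 of the 12 higher and 3 of the 12 lower clones moved the same way in all 3 pairs.

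**Figure D1:**
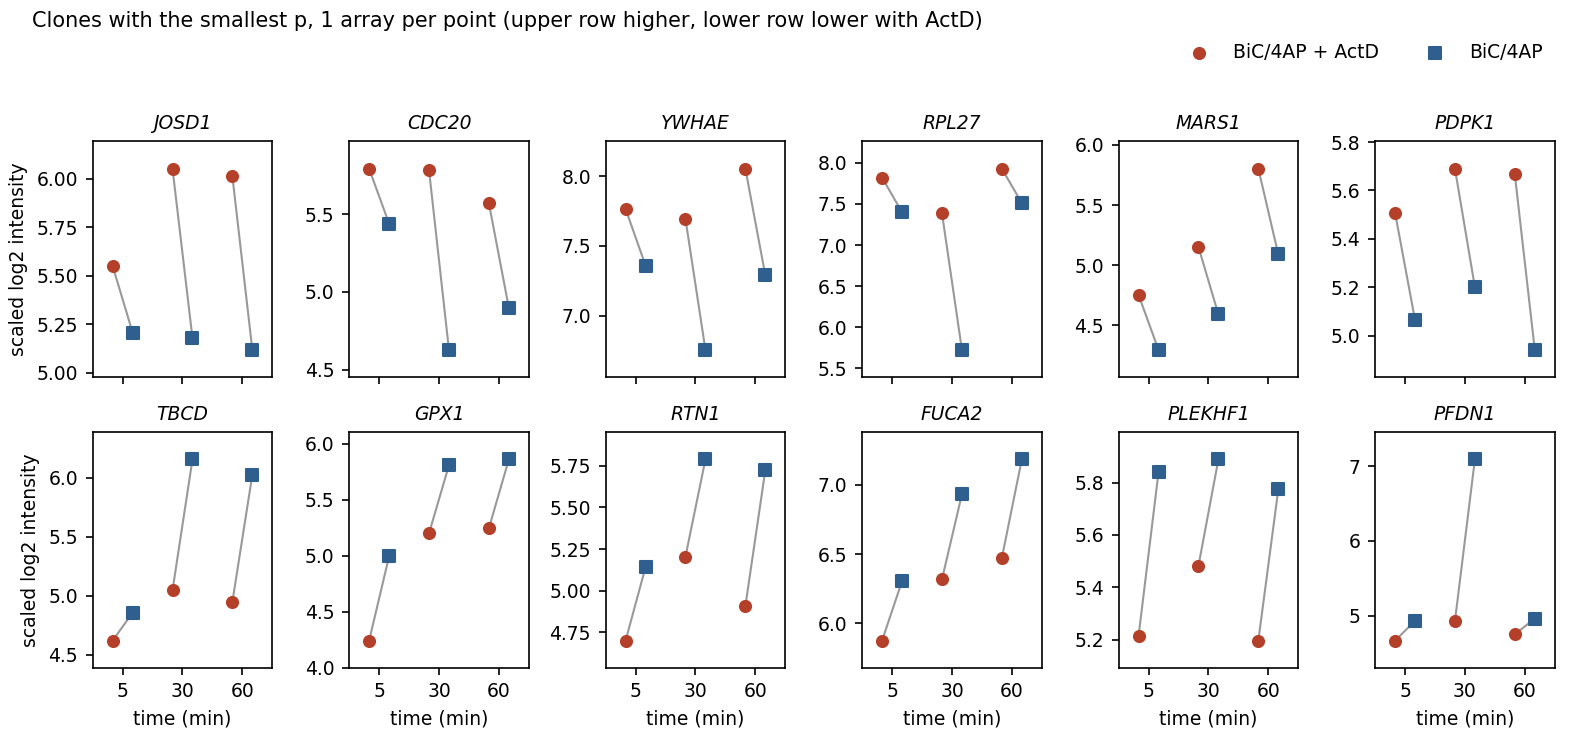
Scaled log2 intensity of 12 of the 24 leading clones (vertical axis, a scale of its own in each panel), by time in min (horizontal axis). Red circles are BiC/4AP + ActD arrays and blue squares BiC/4AP arrays, 1 array per point. Grey lines join arrays of the same time. GPX1 and PLEKHF1 differ alike at all 3 times, whereas RPL27 and PFDN1 differ mainly at 30 min.

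Immediate early genes, whose mRNAs appear after firing only if new RNA is made and decay soon after, had no member that passed the test with ActD. Of 29 genes measured 17 were below 0 (58.62%, against 53.1% of all 6284 named genes), with a median difference of -0.03 against -0.02 for all genes, and 0 passed the test. The median was 0.04 at 5 min, -0.27 at 30 min and -0.07 at 60 min. Without the 30 min pair it was 0.05, with 14 of 29 below 0, against 3233 of all 6284 named genes. The list median of scaled log2 intensity was 5.63 with ActD and 5.40 without it at 5 min. It was 5.12 and 5.37 at 30 min, and 5.30 and 5.38 at 60 min. In Block cultures it was 5.31 with ActD and 5.23 without it at 5 min. There it was 5.23 and 5.40 at 30 min, and 5.24 and 5.39 at 60 min.

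FOS, a subunit of the AP-1 factor, had 4.77, 4.58 and 5.00 on the BiC/4AP + ActD arrays of 5, 30 and 60 min, against 4.96, 5.15 and 5.07 on BiC/4AP arrays. It was lower in each pair, but the mean of -0.28 ± 0.22 was close to its error, the Block pairs were also below 0 in each case, and the difference between the arms was 0.05 ± 0.26. ARC, a dendritically localized regulator of AMPA receptor traffic, had 5.88, 4.78 and 4.32 with ActD, against 5.47, 4.79 and 4.79 without it, so that its pair differences ran 0.41, -0.01 and -0.46. NR4A1, an orphan nuclear receptor, had pair differences of 0.47, 0.38 and -0.27, and HOMER1, a postsynaptic scaffold, of 0.12, -0.26 and -0.22. ATF3, a stress-induced bZIP factor, was below 0 in each pair (-0.07, -0.51 and -0.12).

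The AP-1 subunit JUNB was read by 3 clones with means of 0.06, 0.09 and -0.02, of which 2 had -0.73 and -0.77 at 30 min and the third 0.31. JUN, its partner in AP-1, had clones at 0.06 and 0.35, and in the clone at 0.35 the ActD values of 5.61, 5.14 and 5.10 lay above the 4.88, 4.96 and 4.94 of BiC/4AP arrays. IER2, a nuclear early response protein, was at -0.01 ± 0.21, with pair differences of -0.12, 0.02 and 0.07. KLF6, a zinc finger factor, had clones at 0.20 and 0.02. GADD45G, a growth arrest gene, had the smallest p of the list, with 4.71, 4.78 and 4.84 with ActD, against 4.83, 5.71 and 5.48 without it, a difference of -0.57 ± 0.23. FOSB, EGR1, BDNF, DUSP1 and BTG2, and the short-lived ODC1, matched no named clone and were not analysed here.

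Short-lived mRNAs of other classes were not lower either: 17 of 27 genes were above 0 (62.96%, against 46.9% of all named genes), with a median of 0.06, and 0 passed the test. The medians of the 5, 30 and 60 min pairs were 0.12, -0.08 and 0.10. Without the 30 min pair the median was 0.11, with 20 of 27 above 0, against 3051 of all 6284 named genes. MYC, the growth-promoting transcription factor, had 6.18, 6.31 and 6.72 with ActD, against 5.99, 6.40 and 6.61 without it in its brighter clone, a difference of 0.07 ± 0.21, and its second clone was at 0.03 ± 0.22. NFKBIA, the inhibitor of NF-kappa B, was at 0.13 and 0.04 in its clones. ZFP36, which promotes decay of AU-rich mRNAs, had 6.81, 6.24 and 5.80 with ActD, against 6.76, 6.53 and 5.78 without it. Its paralogue ZFP36L1 was above 0 in each pair (0.20, 0.38 and 0.31). The cell cycle inhibitor CDKN1A was at -0.14, 0.12 and -0.10 in 3 clones, and MDM2, the ubiquitin ligase of p53, at 0.11 ± 0.25. The MCL1 clone exceeded blank spots on 1 of 6 arrays. The p53 target list, which includes CDKN1A and MDM2, had a median of -0.13, with 11 of 16 genes below 0, and the median was -0.01 without the 30 min pair, with 8 of 16 below 0.

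**Figure D2:**
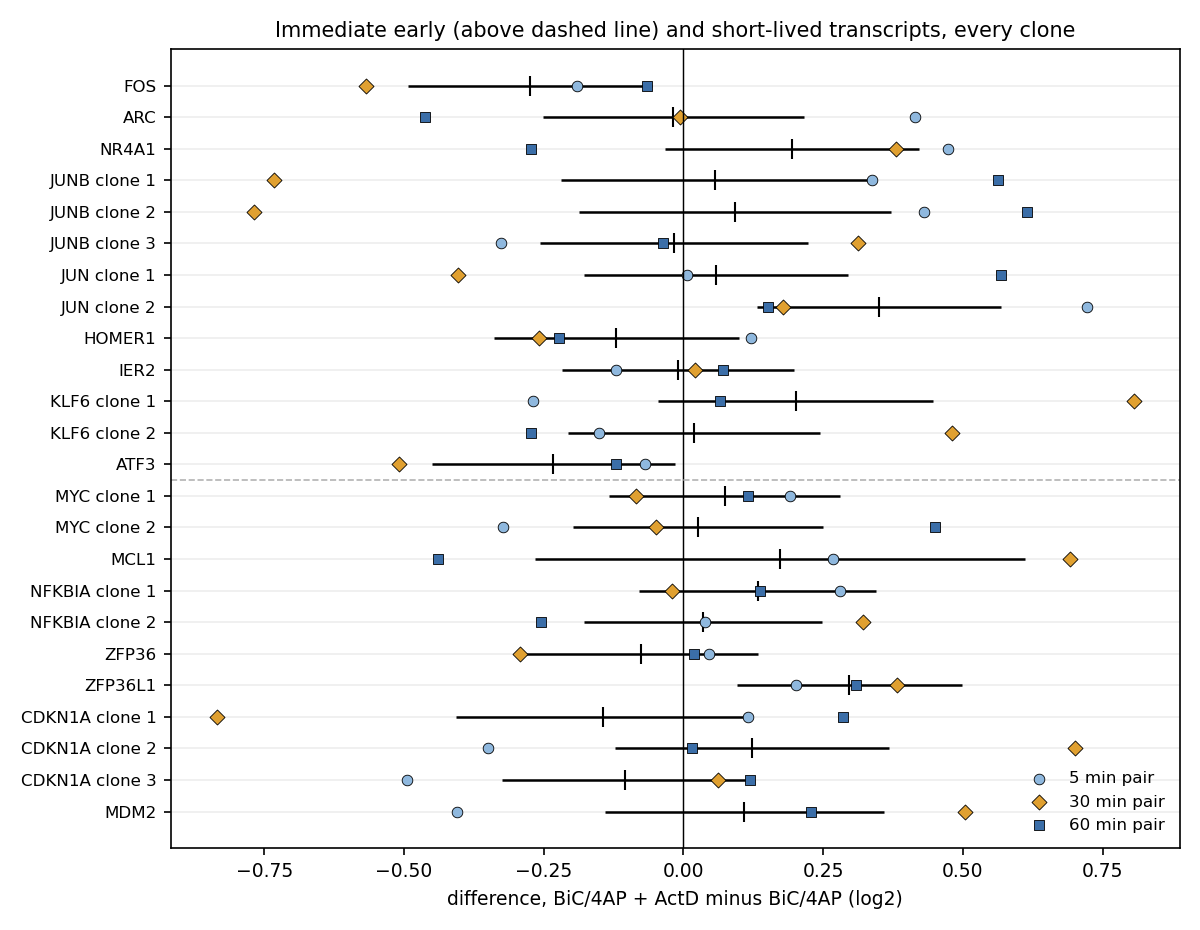
Difference, BiC/4AP + ActD minus BiC/4AP on the log2 scale (horizontal axis), for every clone of the named immediate early genes (above the dashed line) and short-lived transcripts (below it). Symbols are the 5, 30 and 60 min pairs, vertical ticks the mean of the 3 pairs and horizontal bars its SE from limma; the symbols of most clones lie on both sides of 0, and FOS, ATF3, ZFP36L1 and the second JUN clone are the ones with all 3 on the same side.

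Ribosomal protein genes were the list furthest from the rest, and this rested on a single array. With ActD 50 of 58 genes were above 0 (86.21%, against 46.9% of all named genes), with a median difference of 0.29, and 0 passed the test. The pair medians were -0.05 at 5 min, 0.94 at 30 min and 0.01 at 60 min. Median scaled log2 intensity of the 58 genes was 7.56, 7.77 and 7.74 on the BiC/4AP + ActD arrays of 5, 30 and 60 min, against 7.65, 6.66 and 7.84 on the BiC/4AP arrays, while the 6 arrays of Block + ActD and Block cultures lay between 7.65 and 8.07. The 30 min BiC/4AP array was thus the low value, and the 30 min BiC/4AP + ActD array lay within the range of the others. Without the 30 min pair 35 of 58 genes were below 0 and the median was -0.03.

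RPS26, a protein of the small subunit, had 8.41, 8.67 and 9.28 with ActD, against 8.28, 6.78 and 8.73 without it. RPS6, the small-subunit target of S6 kinase, had 7.65, 7.64 and 8.31 with ActD, against 7.45, 6.26 and 7.80 without it. RPL34, a protein of the large subunit, had 7.20, 7.34 and 7.75 with ActD, against 7.17, 6.11 and 7.06 without it. These 3, with the smallest p of the list, had differences of 0.65 to 0.85, and of 0.34 to 0.36 without the 30 min pair. Ribosomal protein genes have many near-identical pseudogene copies, and their clones may have been read in part through them. In Block cultures the list median was -0.01, and the difference between the arms had a median of 0.31.

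**Figure D3:**
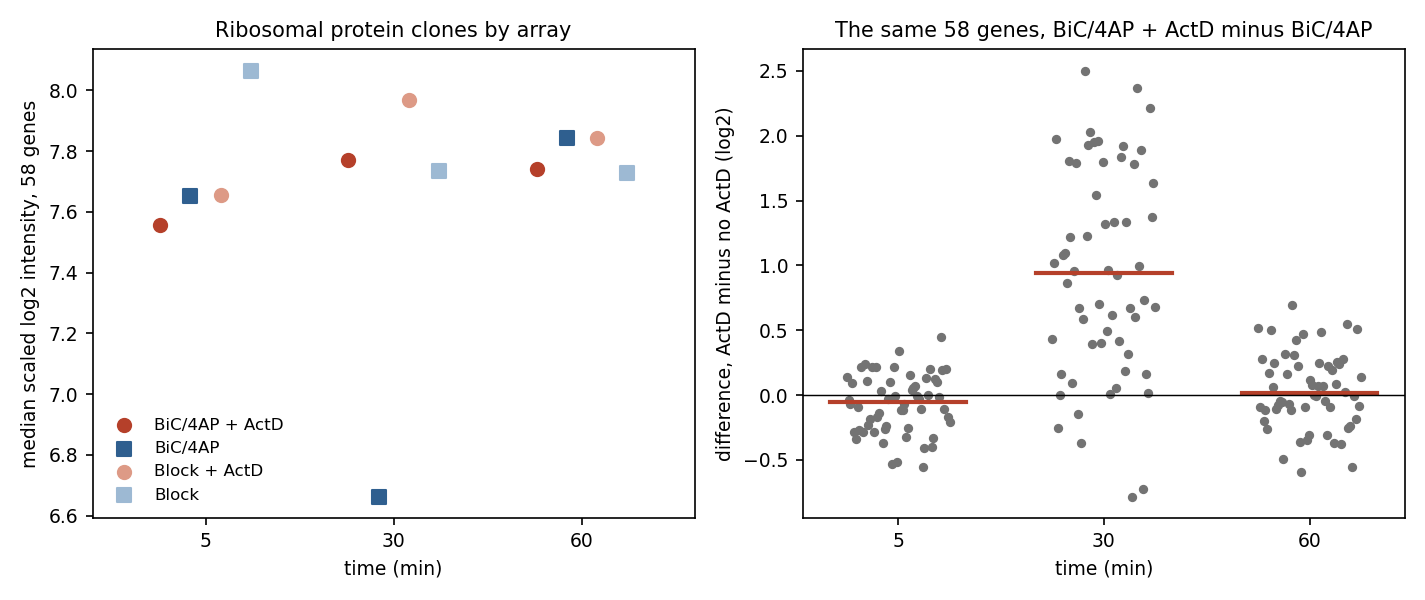
Left, median scaled log2 intensity of the 58 ribosomal protein genes (vertical axis) on each of the 12 arrays, by time in min; the 30 min BiC/4AP array is at 6.66 and the 11 others between 7.56 and 8.07. Right, the difference of each gene between the BiC/4AP + ActD and BiC/4AP array of the same time (log2), with red lines at the medians of -0.05, 0.94 and 0.01.

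Several other lists also had their highest pair median at 30 min, at lower values. Translation factors had 25 of 39 genes above 0 and pair medians of -0.08, 0.33 and 0.05, with EEF1A2, the elongation factor of mature neurons, at -0.14, 1.22 and 0.44 and EIF3F, an initiation factor subunit, at -0.15, -1.46 and 0.10. Proteasome genes had 22 of 36 above 0 and medians of -0.02, 0.26 and 0.02, with the core subunit PSMA6 at 0.39, 0.76 and 0.02 and the regulatory subunit PSMD3 at 0.12, -1.08 and -0.15. A second bright PSMD3 clone had 0.24, 0.23 and 0.08. Respiratory chain and ATP synthase genes had 39 of 66 above 0 and medians of -0.01, 0.25 and -0.07. In this list NDUFS4, a complex I subunit, had 5.38, 5.77 and 5.53 with ActD, against 4.64, 4.68 and 5.43 without it, whereas the ATP synthase subunit ATP5PF (-0.44, -1.20 and -0.18) was below 0 in each pair. Without the 30 min pair the medians of the translation, proteasome and respiratory lists were -0.03, -0.03 and -0.06. By contrast, mitochondrial ribosomal proteins had 29 of 55 above 0 and a 30 min median of 0.01.

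Splicing factors and hnRNP proteins had 51 of 80 genes above 0 and a median of 0.06, which was -0.00045 without the 30 min pair. SNRPD2, a core protein of spliceosomal particles, had 6.33, 6.16 and 6.42 with ActD, against 5.82, 5.63 and 5.99 without it, so that the groups did not overlap, and the difference of 0.49 ± 0.20 was nearly even over time, while a second clone was at 0.71, 1.09 and 0.11. SF3A3, a subunit of the U2 particle, was at 0.26, 0.68 and 0.48 in a clone whose groups did not overlap, but at -0.69, -0.17 and -0.60 in a second bright clone, whose groups did not overlap in the other direction. Among genes of RNA polymerase II and its general factors, which transcribe mRNA, 25 of 45 were below 0 (median -0.05), with the polymerase subunit POLR2K at -0.07, 1.22 and 0.51 and TAF12, of the TFIID complex, at -0.51, -1.16 and 0.16. Genes of mRNA decay and silencing had 20 of 37 below 0 and a median of -0.04. In that list EXOSC7, an exosome subunit, was at -0.19, -0.33 and -0.55 and the decapping factor DCP1A at -0.12, 1.04 and 0.24. Ribosome biogenesis and nucleolar genes had 29 of 50 below 0 (median -0.03), among them NOC2L (-0.51, -0.49 and -0.20) and TAF1B, of the RNA polymerase I factor SL1 (-0.66, -0.94 and -0.02).

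Axon and cytoskeleton genes had 35 of 53 above 0 (66.04%, against 46.9% of all named genes) and a median of 0.11, with pair medians of 0.07, 0.10 and 0.06 and 0.04 without the 30 min pair. The 30 min pair stood out in PFN1 and STMN2. PFN1, the actin-binding profilin, had 7.78, 7.88 and 7.75 with ActD, against 7.64, 5.43 and 7.71 without it in its brightest clone, whereas further bright clones had -0.73 and 0.10 at 30 min. STMN2, a tubulin-binding protein of growing axons, had 7.11, 7.25 and 7.60 with ActD, against 7.19, 5.66 and 7.45 without it. ACTB, cytoplasmic beta-actin, was at -0.06, 0.61 and 0.70 in its brightest clone, but 4 further bright clones had -0.76 to -0.34 at 60 min and means of -0.12 to 0.00. Synaptic vesicle and release genes had 26 of 45 below 0 (median -0.06), with STXBP2, a syntaxin-binding protein, at -1.12, -0.83 and 0.15, complexin CPLX1 at 0.07, 1.88 and -0.12 and AP2S1, a clathrin adaptor subunit, at -0.05, 0.14 and 2.06.

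Postsynaptic and dendritic genes lay mostly below 0 in the 5 and 60 min pairs. Over the 3 pairs 12 of 16 were below 0 (75%, against 53.1% of all named genes) with a median of -0.05. Without the 30 min pair 15 of 16 were below 0, against 3233 of all 6284 named genes. The median was then -0.14 (5 min -0.20, 60 min -0.20), and 0 passed the test in either fit. The list median of scaled log2 intensity was, however, 5.87 with ActD and 5.65 without it at 5 min. At 60 min it was 5.17 and 5.40. CHRM1, the M1 muscarinic receptor, had 4.29, 5.12 and 5.23 with ActD, against 4.78, 5.65 and 5.46 without it, a difference of -0.42 ± 0.21. PRKACB, a catalytic subunit of protein kinase A, was at -0.22, 0.14 and -0.86. In Block cultures the median difference of the list was 0.06. Chaperones had 30 of 47 above 0, with HSP90B1, of the endoplasmic reticulum, at 0.38, 0.33 and 0.52. Sterol and fatty acid synthesis genes had 14 of 23 below 0, while HMGCS1, the hydroxymethylglutaryl-CoA synthase, was above 0 in each pair (0.44, 0.73 and 0.43). Glycolysis (9 of 15 below 0, with a 30 min median of -0.11), cell cycle (29 of 49 above 0) and zinc finger ZNF genes (64 of 114 below 0) had medians between -0.06 and 0.02. Without the 30 min pair 29 of 49 cell cycle genes were instead below 0, with a median of -0.06.

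**Figure D4:**
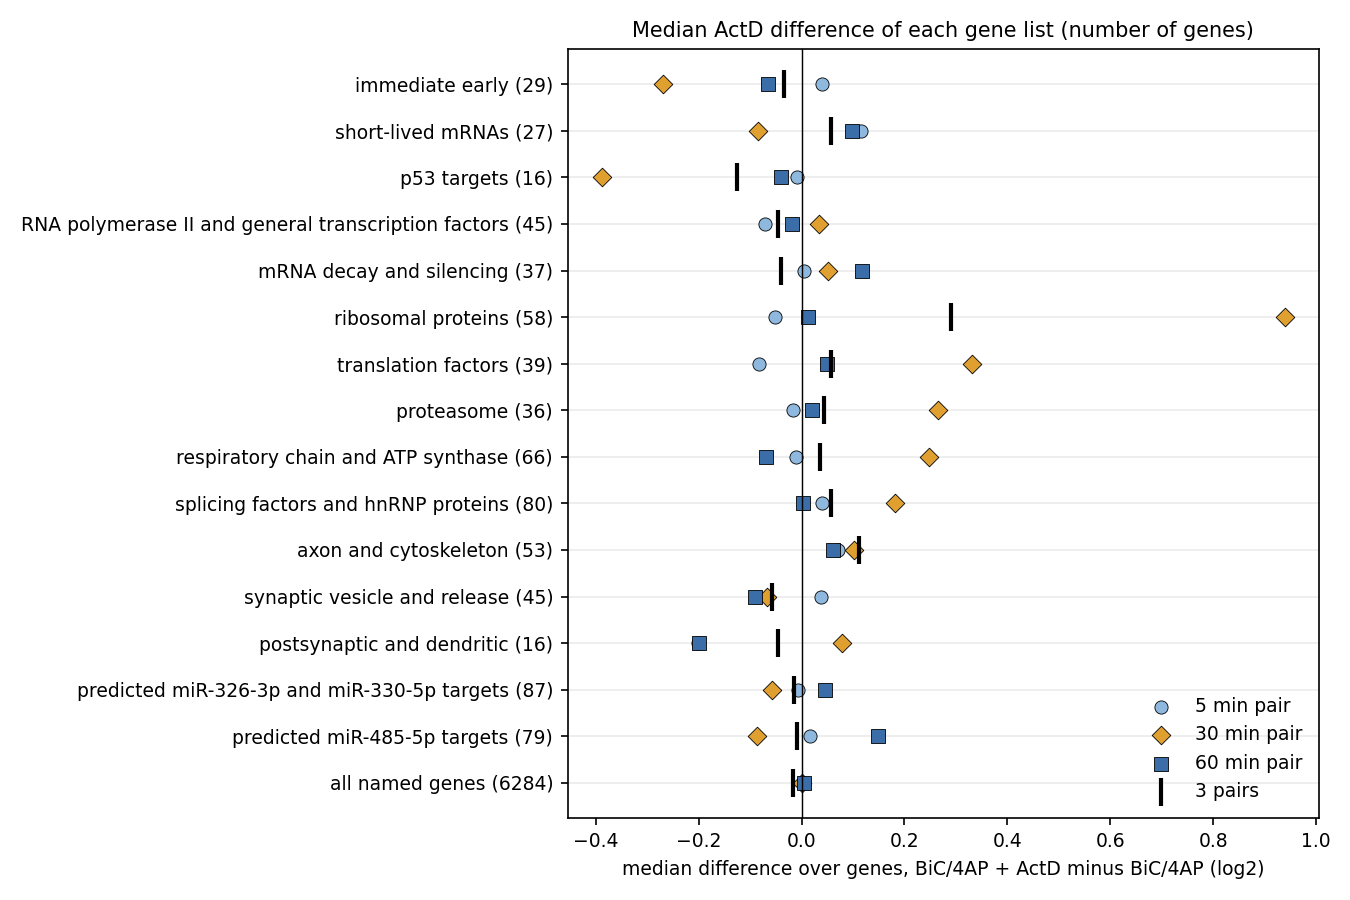
Median difference over the genes of each list, BiC/4AP + ActD minus BiC/4AP on the log2 scale (horizontal axis), with the number of genes in parentheses; circles, diamonds and squares are the 5, 30 and 60 min pairs and black ticks the median over genes of the mean of the 3 pairs. Ribosomal proteins reach 0.94 at 30 min and lie near 0 at the other times.

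miRNAs act after transcription, on mRNAs that carry matches to their seed (bases 2 to 8), and the study drew several from sequence motifs of its destabilized transcripts. In the study, destabilized meant lower after synaptic stimulation, both with and without ActD. Here stimulated cultures with ActD were set against stimulated cultures without it, which is a different comparison. Whether stimulation lowered the predicted targets was therefore not tested. Targets of some of these miRNAs are described here, although 0 of them passed the test. Targets of the other miRNAs named by the study were not analysed. The mature rat sequences, from RefSeq annotation of GRCr8 and written with the seed in capitals, show why miR-326-3p (chr1:163266224-163266244, plus strand) and miR-330-5p (chr1:87961227-87961248, plus strand) share a target list, and that miR-485-5p (chr6:134571076-134571097, plus strand) has a seed of its own.
miR-326-3p: cCUCUGGGcccuuccuccagu
miR-330-5p: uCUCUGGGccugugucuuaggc
miR-485-5p: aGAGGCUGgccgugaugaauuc

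Predicted targets of miR-326-3p and miR-330-5p had 46 of 87 genes below 0 (52.87%, against 53.1% of all named genes) and a median of -0.02. Their lowest p belonged to SSH2, a cofilin phosphatase, with 4.63, 4.43 and 4.38 with ActD, against 5.89, 5.26 and 4.53 without it, and to the survival factor BCL2L2, with 5.23, 5.38 and 5.26 with ActD, against 4.51, 4.96 and 4.93 without it and no overlap. Predicted targets of miR-485-5p had 40 of 79 below 0 (50.63%) and a median of -0.01, with 60 min the highest pair at 0.15. RBPMS, an RNA-binding protein, was at -0.22, -0.68 and -0.32 and PDK3, a pyruvate dehydrogenase kinase, at 0.02, 0.32 and 0.92. Since the motifs behind these miRNAs came from the study's own arrays, the lists are not independent evidence. They also do not test the study's miRNA result, which rests on the other comparison.

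Markers of other cells were compared because the glial layer could contribute. With ActD 7 of 8 fibroblast and vessel markers were below 0, with a median of -0.07, of -0.46 at 60 min and of -0.31 without the 30 min pair. FN1, fibronectin, had 11.64, 10.68 and 8.58 with ActD, against 11.56, 11.21 and 9.35 without it, and the summed scaled intensity of the list ran from 3636 to 10850 on BiC/4AP + ActD arrays and from 4672 to 11570 on BiC/4AP arrays. Astrocyte markers had 6 of 11 below 0, with GFAP, the astrocyte filament, at 0.02, -0.22 and -0.38, and summed levels of 665.7 to 868.9 on BiC/4AP + ActD and 765.7 to 842.6 on BiC/4AP arrays. Neuron markers had 8 of 13 above 0 but 5 of 13 without the 30 min pair, with pair medians of -0.08, 0.08 and -0.11. Among them SNAP25, of the vesicle fusion machinery, was at -0.26, 1.60 and 0.23. Microglial markers had 5 of 8 below 0 and oligodendrocyte markers 4 of 6 above 0, with MBP, of myelin, at -0.42, -0.38 and 0.90. Whether cell makeup had a part in any gene's difference was not tested.

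Without the 30 min pair 29 clones passed in limma, 11 higher (0.119%) and 18 lower (0.195%), with 374 higher and 339 lower at an unadjusted p under 0.05. This fit has 1 residual degree of freedom, and its prior on the variance, worth 39.71 degrees of freedom, sets the error almost alone. Of the 29 clones 26 moved the same way at 5 and 60 min, but 2 by at least 1 on the log2 scale at both, and in 8 clones the larger difference was over 10 times the smaller. The 30 min difference was opposite in 23 of the 29, and when the 30 min BiC/4AP array alone was left out of a fit of the other 11 arrays 0 clones passed (limma, smallest adjusted p = 0.285, with 122 clones higher and 153 lower at an unadjusted p under 0.05). Of 14 further bright clones of the same genes 8 lay in the same direction.

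These clones were named after their values were seen. BTN2A2, a butyrophilin, had 9.74, 5.60 and 5.89 with ActD, against 5.21, 6.18 and 5.60 without it, and rested on the 5 min BiC/4AP + ActD array, while a second clone was at 0.24, -0.30 and -0.09. SLU7, a splicing factor, had 4.53, 4.51 and 4.71 with ActD, against 4.77, 4.53 and 8.03 without it. CDK9, the kinase that releases paused RNA polymerase II, had 6.50, 6.44 and 6.17 with ActD, against 6.71, 5.88 and 9.44 without it. Both rested on the 60 min BiC/4AP array, and the same held for NONO, a paraspeckle protein (8.51 there and 5.66 to 6.24 on the 5 other arrays), whose 3 further bright clones had -0.30 to -0.14 at 60 min. PRPF6, of the spliceosome, and DR1, a repressor of TATA-dependent transcription, were high on the 60 min BiC/4AP + ActD array, at 8.08 and 7.84, against 5.74 to 5.92 and 5.00 to 5.47 on the other 5. ATP5F1E, of ATP synthase, was at 1.47 on the 5 min BiC/4AP + ActD array and at 4.65 to 5.26 elsewhere.

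In other clones both pairs contributed. PC, pyruvate carboxylase, was at -4.10 and -1.35, ZXDC at -0.79 and -1.80 and C12orf57 at -0.75 and -1.86. Each of them exceeded blank spots on 4 of 6 arrays. ZXDC held placeholder values on the 30 min BiC/4AP and the 60 min BiC/4AP + ActD array. That of C12orf57 was on the 30 min BiC/4AP array alone, which this fit leaves out. S100A4, a calcium-binding protein of fibroblasts, had 11.12, 11.53 and 9.01 with ActD, against 11.65, 11.25 and 9.85 without it, a difference without 30 min of -0.68 ± 0.12 (limma adjusted p = 0.0019). PHGDH, the first enzyme of serine synthesis (-0.32 at 5 min and -0.89 at 60 min), NDUFA3, of complex I (-0.38 and -0.72), and CFP, properdin (-0.32 and -0.74), had a like course, with intensities that were lower at 60 min than at 5 and 30 min in both groups. Further PHGDH clones were at 0.97 and -0.02 at 5 min and at 0.17 and -0.15 at 60 min. On the higher side CYB561, a cytochrome of secretory vesicles, was at 0.61 and 0.67, and RAB7A, a late endosomal GTPase, at 0.49 and 0.52, with -1.02 at 30 min. Second clones of CYB561 (-0.44 and -0.56) and RAB7A (0.05 and -0.07) did not share these values. TMEM14B was the only clone of the 29 whose groups did not overlap over the 6 arrays, but it exceeded blank spots on 2 of 6 arrays, and a bright clone of the gene was at -0.47, 0.20 and -0.12.

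**Figure D5:**
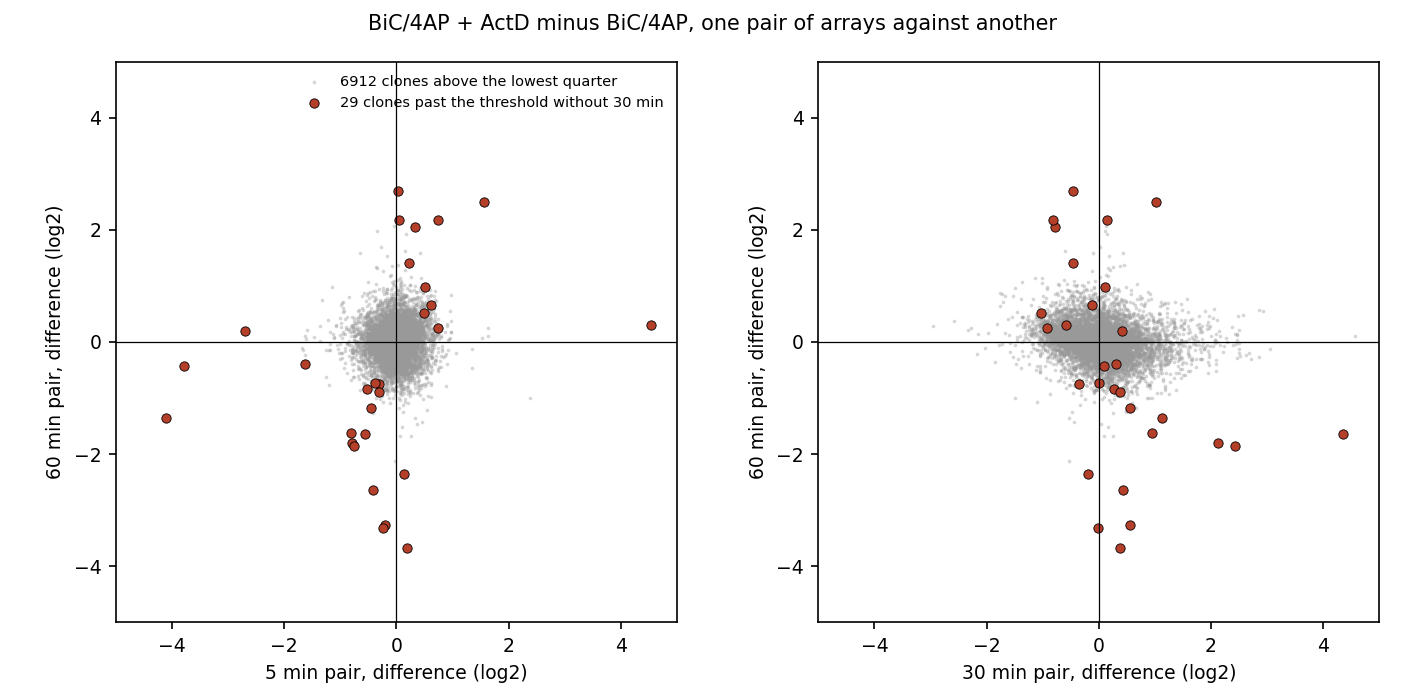
Difference, BiC/4AP + ActD minus BiC/4AP (log2), at 60 min (vertical axes) against 5 min (left) and 30 min (right), 1 grey point for each of 6912 clones; red points are the 29 clones that passed without the 30 min pair. Of the red points 14 lie at least 2 from 0 at 5 or 60 min, and in the right panel most lie on opposite sides of 0 at 30 and 60 min.

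The 60 min pair was also read, as values with no test, since loss should be greatest after the longest block. Clones were listed only where the 30 min difference had the same sign, so the signs of the 30 min values are fixed. Among the clones left out by this were HYPK (-3.68), CDK9 (-3.27) and HERPUD1 (-2.64) on the lower and DR1 (2.69) on the higher side. Among clones with the same sign at 30 and 60 min, the lowest at 60 min were SLU7 (-3.32), NONO (-2.36), PPP4R3B (-2.12), the tight junction gene CLDN14 (-1.43) and the G protein regulator RGS3 (-1.35). At 30 min these were between -0.53 and -0.02. The highest were PRPF6 (2.18), AP2S1 (2.06), the laminin subunit LAMC1 (1.97), tropomyosin TPM1 (1.69) and the receptor kinase GRK6 (1.59), with 30 min values of 0.02 to 0.42. By the index of the deposited table several extreme clones were neighbours: CDK9 and SLU7 (spots 9051 and 9052), TSPAN4 and PRPF6 (4806 and 4807), TPM1 and AP2S1 (4938 and 4939, with DR1 at 4936) and LAMC1 and GRK6 (9498 and 9499). The tetraspanin TSPAN4 was at 2.17 at 60 min. Whether place on the filter had a part in these values was not tested.

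Finally, the difference was compared with that in Block cultures, to ask whether any ActD difference was particular to stimulated neurons. The interaction passed for 0 of 9216 clones in either direction (0%; limma over 12 arrays, smallest adjusted p = 0.9988), with 113 clones higher and 136 lower at an unadjusted p under 0.05. Under the filters of the leading clones except that of the sign, the nearest clones were SNRPD2, G3BP2 (a stress granule protein), PSMB4 (a proteasome core subunit), ALG12 (a mannosyltransferase of glycan synthesis) and KLHL12 on the higher side, at 0.77 to 1.03. On the lower side they were NOC2L, CKAP2 (a spindle protein), ENTREP1, CELA3A (an elastase) and TBCD, at -1.02 to -0.79. Other clones of some of these genes differed less between the arms. A further bright KLHL12 clone was at 0.30, and further bright CELA3A clones at 0.003 and -0.12. The PSMB4 clones brighter than the named one were at -0.18, 0.22 and 0.003. G3BP2 had pair differences of 0.53, 0.42 and 0.38 in stimulated and -0.17, -0.34 and -0.54 in Block cultures. CKAP2 had -0.63, -0.25 and -0.50 in stimulated and 0.51, 0.36 and 0.62 in Block cultures. At 30 min the ActD differences of stimulated and Block cultures correlated at 0.332 over 6912 clones, and at 0.235 with print block and position medians removed, although they share no array. At 5 and 60 min the correlations were -0.0048 and 0.118, and at 60 min -0.00971 with print medians removed.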

How the data were processed

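RNA of 12 hippocampal cultures was labelled with 33P from oligo-dT primers and hybridized to nylon cDNA filters, 1 filter per culture condition. The values deposited by the authors are linear spot intensities, not normalized between arrays, and the series matrix was identical to them (100%). Of 9600 spots 8496 carried 1 human gene symbol (6284 genes), so related transcripts may cross-hybridize. The clone index was chosen as the one under which ribosomal protein spots were bright (percentile 87.8 against 59.9), and the last of 25 positions in each of 384 print blocks was read as blank, leaving 9216 clones. A value of exactly 10 was taken as a placeholder, found 271 times on the 6 arrays.

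Log2 intensities were z-scored on each array, multiplied by the mean SD (1.746) and moved to the mean level (5.563). Differences were tested in R 4.3.3 with limma 3.58.1 (eBayes with intensity trend, time as block, two-sided, Benjamini-Hochberg, threshold 0.05), and the difference between stimulated and Block cultures in a fit of all 12 arrays. The fit was tested on simulated data. Clones named by rank had 1 symbol, no placeholder and intensity above the lowest 25%, except that list members could hold a placeholder, and were the 12 with the smallest p in each direction among those with the same sign in 3 pairs, the 3 with the smallest p in each list, 5 interaction clones in each direction, 5 clones lowest and 5 highest at 60 min with the same sign at 30 min, and, whatever their intensity, all clones of preset immediate early and short-lived genes. The 29 clones that passed without the 30 min pair were named after their values were seen, with no filter. Lists count each gene by its brightest clone. Members and lists were chosen with earlier results of these data known. Other scalings, filters, blocks and left-out arrays were tried as alternatives. Since no condition was repeated, p-values reflect only how far single samples of different times disagree, which may be technical.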

Additional observations from a re-analysis of the deposited data

Results flagged for a closer look

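Of 157 named clones 14 had ActD differences on opposite sides of 0 in stimulated and Block cultures, in all 3 pairs of each, where 1.22% of 9216 clones were above 0 in all stimulated and below 0 in all Block pairs and 1.24% the reverse. Many named clones were chosen for the same sign in 3 stimulated pairs, for a small p or for their interaction, which favours this outcome. The count is therefore a description and cannot be weighed against the shares over all clones. The test of the difference itself gave a limma adjusted p of 0.999 for each.

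Above 0 in stimulated and below 0 in Block cultures were HNRNPH1, with a difference between the arms of 1.41, KLHL12 (1.03), SNRPD2 (0.976), G3BP2 (0.798), ALG12 (0.769), BCL2L2 (0.687), the astrocyte chaperone CLU (0.682) and ZNF444 (0.602). A further bright KLHL12 clone had a difference between the arms of 0.298. CLU differed by 0.27, 0.21 and 0.19 at 5, 30 and 60 min in stimulated cultures and by -0.61, -0.39 and -0.38 in Block cultures.

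Below 0 in stimulated and above 0 in Block cultures were ATF3 (-0.382), EXOSC7 (-0.479), CELA3A (-0.788), CKAP2 (-0.957), ENTREP1 (-0.975) and NOC2L (-1.02). Further bright CELA3A clones had differences between the arms of 0.003 and -0.123. NOC2L differed by -0.51, -0.49 and -0.20 in stimulated cultures and by 0.56, 0.63 and 0.68 in Block cultures.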

How the results depend on the processing

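Counts of clones past the threshold stayed at 0 higher and 0 lower under every other scaling, filter, block and variance model run on the 3 pairs, and in the fits of all 12 arrays. Leaving out single arrays gave 0 to 11 higher and 0 to 18 lower clones, with calls only without an array of the 30 min pair, and 180 to 374 higher and 90 to 339 lower clones at an unadjusted p under 0.05. Without an array of the 5 min pair 205 higher clones were under that p, and without an array of the 60 min pair 180 higher and 147 lower. With 71 higher and 70 lower clones as the base, the counts were 125 and 121 with print medians removed, 34 and 43 without the time block, 187 and 142 with all 12 arrays in 1 fit, and 42 lower with the lowest 25% of intensity left out. Chosen after seeing the data, a fit of 12 arrays with additive time gave 181 and 127, and that of 11 arrays 122 and 153. The 5 and 60 min pairs gave 12 higher and 16 lower past the threshold with the lowest 25% left out (327 and 271 unadjusted) and 0 higher and 3 lower with print medians removed (200 and 252 unadjusted). The cause of these shifts was not tested.

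None of the 24 leading clones passed the threshold under any of 21 settings (lowest limma adjusted p = 0.0707), and PPDPF reversed to -0.053 in the 5 and 60 min pairs with print medians removed. Since these clones were chosen for the same sign in 3 pairs, their direction without a pair is fixed and says nothing of stability. The median of immediate early genes ran from -0.152 to 0.0546 when single arrays were left out, that of short-lived mRNAs from 0.0233 to 0.105 and that of ribosomal proteins from -0.0306 to 0.473. The interaction stayed at 0 clones. By replicate number, no paired analysis was possible because all samples carry the same replicate number, so arrays were paired by time alone.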
